A study of Mus musculus with 4 samples.

Results

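The genes described here are 10 immediate early transcription factors, Fos, Fosb, Jun, Junb, Egr1, Egr2, Atf3, Nr4a1, Nr4a2 and Nr4a3. They were chosen by symbol from the 23282 rows of a lung expression table, with earlier results of these data known, and each symbol matched a single row. The lung RNA came from male CDF1 mice in a crossed design of treadmill exercise (E) and tumor (T), with 1 library for each of 4 groups. These were the normal control, E(-)T(-), then normal exercise, E(+)T(-), then E(-)T(+), the cancer control, and last E(+)T(+), the cancer exercise group. Sets of 4 values below follow this order unless said otherwise. CT26, a mouse line of colorectal carcinoma, had been injected into a tail vein in the tumor groups, and the exercised groups ran on a treadmill at high intensity. Per the labels each group held 10 mice and the age was postnatal day 28, whereas the methods give about that age for purchase, before the experiment. The study took calf muscle from 1 representative mouse of each group and describes the lung work as similar, but does not say outright whether 1 lung or a pool was sequenced, nor how long after the last run the tissue was taken. Mice were killed by exsanguination under anesthesia, and any part of that step in the levels below was not tested. With 1 library per group there is no replicate error, and each difference below compares libraries.

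Immediate early genes are switched on within minutes of a stimulus from factors that already sit in the cell, with no new protein needed. Growth factor and stress kinases (ERK, JNK, p38) act through serum response factor and its partners, and cAMP or calcium acts through CREB, which binds the cAMP response element (CRE). FOS and JUN proteins pair into the AP-1 dimer, EGR proteins are zinc finger activators, ATF3 is a stress-induced bZIP factor, and the NR4A proteins are orphan nuclear receptors. Their transcripts decay fast, so that a level reflects recent signaling. In lung they are known from endothelium, epithelium, fibroblasts and leukocytes.

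Promoters of the 3 NR4A genes, Atf3, Fos and Jun are shown. They were picked by the levels below, where most of these genes moved together and Jun moved least, so the choice is no evidence on the promoters. RefSeq windows (GRCm38.p6, the assembly of the mm10 build that the labels name) were held for 9 of the 10 genes (not for Egr1), and each spans 300 bases, of which 250 lie before the gene start. The stretches below are the bases before the start, 5′ to 3′ on the gene's strand, with each CRE core (TGACG on either strand) in capitals. The stretch of Nr4a3 stops after 98 bases, where an annotated transcript with an earlier start begins.
Nr4a1, chr15:101266596-101266845, plus strand: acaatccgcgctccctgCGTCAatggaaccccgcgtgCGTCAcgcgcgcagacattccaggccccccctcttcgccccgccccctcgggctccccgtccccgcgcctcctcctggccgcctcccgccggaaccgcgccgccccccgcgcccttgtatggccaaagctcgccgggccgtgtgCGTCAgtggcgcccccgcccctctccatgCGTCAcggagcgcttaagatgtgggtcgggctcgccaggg
Nr4a2, chr2:57124004-57124253, minus strand: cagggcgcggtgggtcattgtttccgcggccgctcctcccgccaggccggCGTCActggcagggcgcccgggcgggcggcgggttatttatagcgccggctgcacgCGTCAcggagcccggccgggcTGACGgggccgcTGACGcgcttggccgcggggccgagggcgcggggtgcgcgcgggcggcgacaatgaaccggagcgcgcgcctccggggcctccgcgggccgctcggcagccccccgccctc
Nr4a3, chr4:48045055-48045152, plus strand: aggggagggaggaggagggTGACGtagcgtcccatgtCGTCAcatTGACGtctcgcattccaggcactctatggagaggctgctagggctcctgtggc
Atf3, chr1:191183334-191183583, minus strand: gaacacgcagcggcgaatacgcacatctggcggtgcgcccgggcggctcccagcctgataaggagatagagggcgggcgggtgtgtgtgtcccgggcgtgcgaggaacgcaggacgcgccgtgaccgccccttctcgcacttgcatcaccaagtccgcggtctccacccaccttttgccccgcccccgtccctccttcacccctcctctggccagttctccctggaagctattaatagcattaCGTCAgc
Fos, chr12:85473640-85473889, plus strand: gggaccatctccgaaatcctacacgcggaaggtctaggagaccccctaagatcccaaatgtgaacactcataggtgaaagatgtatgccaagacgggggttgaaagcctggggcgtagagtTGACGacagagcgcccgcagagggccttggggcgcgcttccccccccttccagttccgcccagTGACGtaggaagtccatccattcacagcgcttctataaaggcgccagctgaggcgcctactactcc
Jun, chr4:95052223-95052472, minus strand: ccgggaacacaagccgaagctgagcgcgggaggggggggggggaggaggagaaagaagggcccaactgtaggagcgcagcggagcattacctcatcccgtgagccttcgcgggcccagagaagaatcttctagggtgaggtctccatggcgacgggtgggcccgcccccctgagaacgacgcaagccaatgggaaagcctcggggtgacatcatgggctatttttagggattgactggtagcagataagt

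As exact letters, the CRE core TGACG was found in the windows of 8 of the 9 genes, and Jun was the one without it. The stretch of Jun holds tgacatca, a near match of the full CRE, and near matches were not counted. Among all genes with a window, 23.0% had the exact core in at least 1 window. The windows of Nr4a1, Nr4a2 and Nr4a3 each held 4 cores, that of Fos held 2 and that of Atf3 held 1. Those of Fosb and Junb held 1 each, and those of Egr2 held 0 or 2. For Nr4a3, 3 of the 4 lie in the stretch shown. Egr2 had 5 windows because RefSeq gives it several starts, and at least 1 of these held the CArG box, the site of serum response factor, which 1.81% of all genes had. The full CRE, TGACGTCA, which contains the core, was in none of the 9 (2.03% of all genes). The same held for the AP-1 site TGANTCA (8.97%) and for the NBRE, AAAGGTCA, which NR4A proteins bind (1.70%). These are matches of letters on both strands within the window, and sites farther away were not searched. Whether these sites bear on the levels of the genes was not tested.

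The deposited log2 values are log2(normalized read count + 1), and levels are given here as normalized reads. Libraries held 9354542 to 13367971 reads assigned to genes, and the 10 factors had 20 to 5143 reads each per library. Hemoglobin genes took 14.3%, 14.2%, 1.4% and 31.4% of the reads. Lung markers were present in every library, and the 9 alveolar epithelium markers summed to 241953, 289870, 34032 and 190542 normalized reads. They were lowest in the cancer control. Krt20, a keratin of intestinal epithelium, had 0, 46, 2696 and 476 reads, so that the library labelled E(+)T(-) also held reads of it. Of 7 cell division genes, 3 were higher by 2-fold or more and 0 lower in E(+)T(-) over E(-)T(-), against 5.28% and 4.70% of all genes. Where the Krt20 reads in E(+)T(-) came from was not tested. Whole reads were recovered from the values, and each difference carries a 95% exact (Clopper-Pearson) interval from counting error alone. Reads were not marked by molecular identifiers and may include PCR copies of 1 molecule, and the intervals say nothing of the variation between mice.

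The library of exercised, tumor-bearing mice stood apart from the others for most of these genes. In E(+)T(+), 9 of the 10 factors had their highest level of the 4 libraries, against 22.3% of the 15164 genes whose mean reached 4 normalized reads. Egr2 was highest in E(-)T(-) (22.5% of all genes), and no factor was highest in E(+)T(-) (19.7%) or in E(-)T(+) (35.5%). A difference of 2-fold or more over both E(-)T(+) and E(+)T(-) was seen for 8 of the 10, against 6.26% of all genes. Because the 10 factors were chosen with earlier results of these data known, such counts beside the shares are descriptions and carry no test. The lowest level was divided among the other 3 libraries, with 5 genes in E(-)T(+) (36.9% of all genes), 3 in E(-)T(-) (22.1%), 2 in E(+)T(-) (18.3%) and none in E(+)T(+) (22.6%). Centred on each gene's own mean, the average log2 level over the 10 genes was -0.64, -0.47, -0.54 and 1.65. In RNA from whole lung, more cells of a type that expresses a gene and more RNA per cell cannot be told apart.

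**Figure D1:**
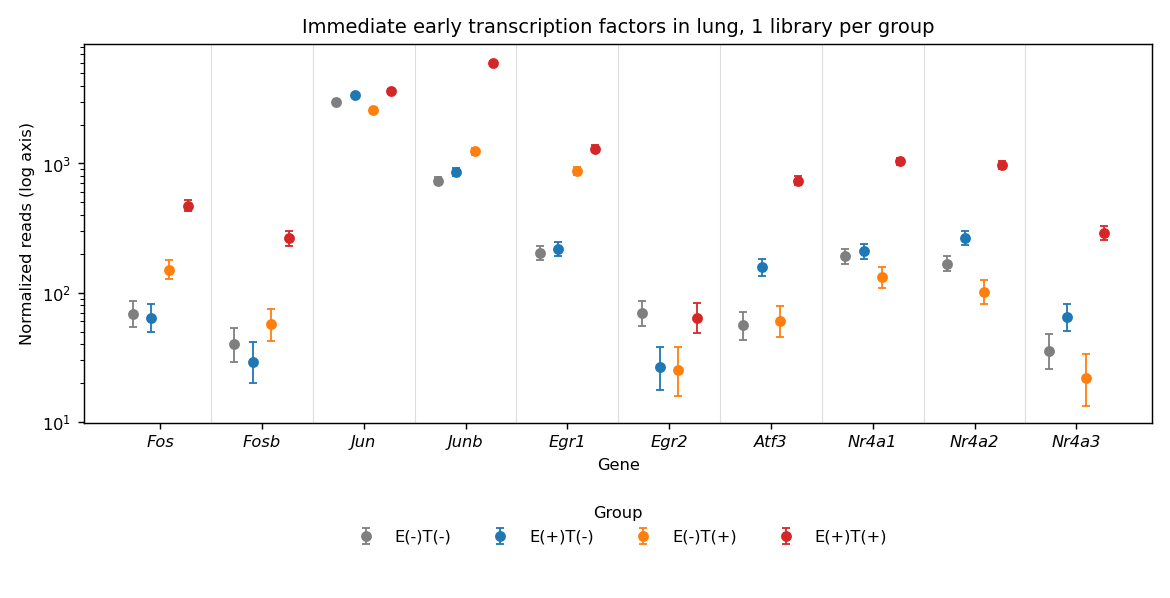
Normalized reads (log axis) of the 10 factors in the 4 libraries. Points are single libraries, and bars are 95% exact Poisson intervals of the recovered reads. E(+)T(+) is the highest point for every gene but Egr2, and the 4 points of Jun lie closest together.

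Fos and Fosb encode the FOS partners of AP-1, which cannot bind DNA as a dimer with each other and need a JUN protein. Fos stood at 68.7, 64.3, 151 and 469 normalized reads. Both tumor libraries were thus above both libraries without tumor, and those without tumor differed by less than counting error. With tumor, Fos was 3.09-fold higher in the exercised library (log2 difference 1.63, interval 1.35 to 1.93). In resting mice it was 2.18-fold higher with tumor (1.13, 0.73 to 1.55), and in exercised mice 7.21-fold (log2 difference 2.85). Fosb followed the same order, at 39.8, 29.3, 57.0 and 264 normalized reads. The levels of Fosb in E(-)T(-) and E(+)T(-), and likewise in E(-)T(-) and E(-)T(+), did not differ beyond counting error, while E(+)T(+) stood clear of every other library. There it was 4.56-fold higher than in E(-)T(+) (2.19, 1.77 to 2.68) and 8.73-fold higher than in E(+)T(-) (3.13, 2.63 to 3.75).

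Jun and Junb encode the JUN side of AP-1, JUNB being the weaker activator of the pair. Jun stood at 2991, 3363, 2598 and 3607 normalized reads, a range of 0.47 on the log2 scale. It was the most even of the 10 genes, and none of its 4 differences reached 2-fold. Its differences with exercise were 0.17 (0.10 to 0.24) without tumor and 0.47 (0.40 to 0.55) with tumor. The latter turned to -0.14 when libraries were scaled by their total reads. Junb stood at 737, 858, 1241 and 6013 normalized reads and was far highest in cancer exercise. That level was 4.84-fold above the cancer control (2.28, 2.18 to 2.37) and 2.81 above normal exercise on the log2 scale (2.71 to 2.91). Tumor in resting mice went with a smaller difference in Junb, 1.68-fold (0.75, 0.62 to 0.88). The paralogs Jun and Junb were therefore unlike each other across the libraries, whereas Junb lay close to Fos and Fosb.

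Atf3, a stress-induced bZIP factor that can repress its targets, was the single member past the limit upward with exercise in mice without tumor. It stood at 56.0, 158, 60.4 and 733 normalized reads. Both exercised libraries lay above both resting libraries, and the resting libraries did not differ beyond counting error. Atf3 was 2.79-fold higher with exercise without tumor (log2 difference 1.48, interval 1.08 to 1.93) and 12.0-fold higher with exercise with tumor (3.58, 3.21 to 4.03). Between the exercised libraries, the one with tumor was 4.61-fold higher (2.21, 1.97 to 2.47).

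Egr1, a zinc finger factor and a standard readout of ERK signaling, differed mainly with tumor. Its levels were 203 and 219 normalized reads without tumor, against 879 in the cancer control and 1303 in cancer exercise. Levels without tumor differed by less than counting error, and both libraries with tumor were far above them. In resting mice Egr1 was 4.31-fold higher with tumor (2.11, 1.90 to 2.33), and in exercised mice 5.94-fold (2.57, 2.37 to 2.78). Exercise with tumor went with a difference of 0.57 (0.44 to 0.70), short of 2-fold and at -0.04 under scaling by total reads.

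Egr2, a relative of Egr1 known from Schwann cells, T cells and macrophages, had another pattern. It stood at 69.8, 26.6, 25.3 and 64.2 normalized reads, on 82, 29, 23 and 55 reads. The normal control and the cancer exercise library were high, and the other two libraries were low. Exercise thus went with a lower level without tumor (-1.36, -2.05 to -0.76) and a higher one with tumor (1.31, 0.63 to 2.12). The tumor differences likewise had opposite signs, -1.43 (-2.20 to -0.79) in resting and 1.24 (0.60 to 1.97) in exercised mice. The upward differences of Egr2 came inside 2-fold, at 0.72 and 0.84, under scaling by total reads, and at 0.96 and 0.91 with a pseudocount of 16.

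The NR4A receptors, which are active without a known ligand and are induced by cAMP, calcium and stress, went together. Nr4a1 stood at 192, 209, 132 and 1037 normalized reads. Nr4a2 stood at 168, 266, 102 and 968, and Nr4a3 at 35.6, 65.2, 22.0 and 288. The order of the libraries was the same for all 3 genes, lowest in the cancer control and highest in the cancer exercise library, although E(-)T(-) and E(+)T(-) did not differ beyond counting error for Nr4a1, nor E(-)T(-) and E(-)T(+) for Nr4a3.

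Exercise with tumor went with the largest NR4A differences. Nr4a1 was 7.82-fold higher (2.97, 2.70 to 3.27), Nr4a2 9.41-fold (3.23, 2.94 to 3.57) and Nr4a3 12.6-fold (3.65, 3.06 to 4.46). Without tumor, exercise went with smaller differences of 0.12 (-0.15 to 0.40) for Nr4a1, 0.66 (0.39 to 0.93) for Nr4a2 and 0.86 (0.30 to 1.46) for Nr4a3, and none reached 2-fold. In resting mice the tumor library was lower, by -0.54 (-0.88 to -0.22), -0.72 (-1.09 to -0.36) and -0.67 (-1.55 to 0.10), again within 2-fold. In exercised mice it was higher, 4.93-fold for Nr4a1 (2.30, 2.10 to 2.52), 3.64-fold for Nr4a2 (1.86, 1.67 to 2.06) and 4.37-fold for Nr4a3 (2.13, 1.76 to 2.55).

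The comparisons can be read together by their counts. The exercise effect without tumor compares the libraries labelled as without tumor, of which E(+)T(-) held reads of Krt20. In it 1 of the 10 factors was higher by 2-fold or more (Atf3) and 1 was lower (Egr2). Of all genes 9.98% passed that limit, 5.28% higher and 4.70% lower. The share depended on the filter and was 2.13% among genes with a mean of at least 100 normalized reads, a mean that Atf3 reached and Egr2 did not. In the tumor effect without exercise 2 were higher (Fos and Egr1) and 1 lower (Egr2), against 20.6% and 25.7% of all genes (46.2% in all). With a pseudocount of 16 Fos came to 0.98, just inside. In the exercise effect with tumor 8 were higher and none lower, where 42.0% of all genes passed, 24.3% higher and 17.7% lower, and the median difference of the factors was 2.23 against 0.01 for all genes. In the tumor effect with exercise 9 were higher and none lower, against 14.9% and 13.0% of all genes (27.8% in all), with medians of 2.25 and -0.00. These last 2 comparisons share the E(+)T(+) library and are not independent of each other.

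**Figure D2:**
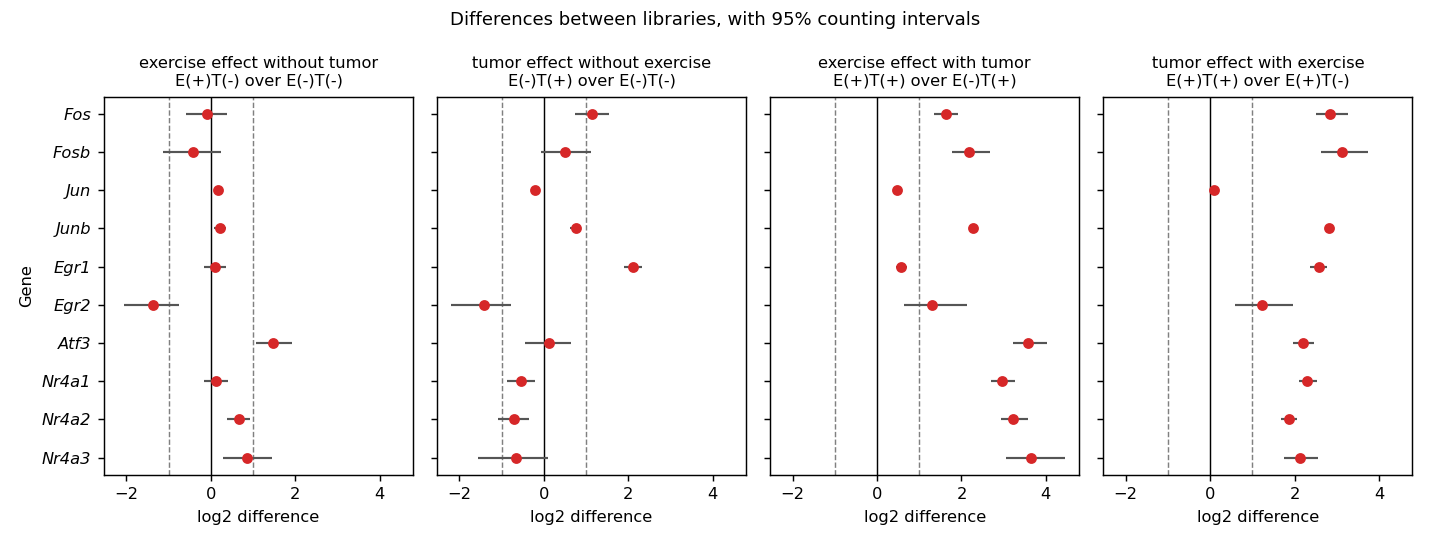
Log2 differences of the deposited values (points) with 95% exact counting intervals (bars) for the 4 comparisons. Dashed lines mark 2-fold. Points lie on both sides of 0 in the 2 panels without E(+)T(+) and to the right of 0 in the 2 panels with it, where Jun is nearest to 0 at 0.10 in the tumor effect with exercise.

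Scaling by total reads moved 18 differences of the factors beyond the main counting interval. Totals without hemoglobin genes moved 4 and a pseudocount of 16 moved 2. Some single values moved further with that pseudocount than with total reads. Fosb in the tumor effect with exercise, for example, went from 3.13 to 2.63, against 2.72 with total reads. By total reads alone, the all-gene median shifted to -0.59 (exercise effect with tumor) and -0.41 (tumor effect with exercise). The factors' medians then stood at 1.63 and 1.84, with 7 and 8 genes past 2-fold, and Jun (both) and Egr1 (the former) changed sign. Without the hemoglobin genes in the totals, all-gene medians were -0.08 and -0.09, and 8 and 9 factors were past 2-fold.

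**Figure D3:**
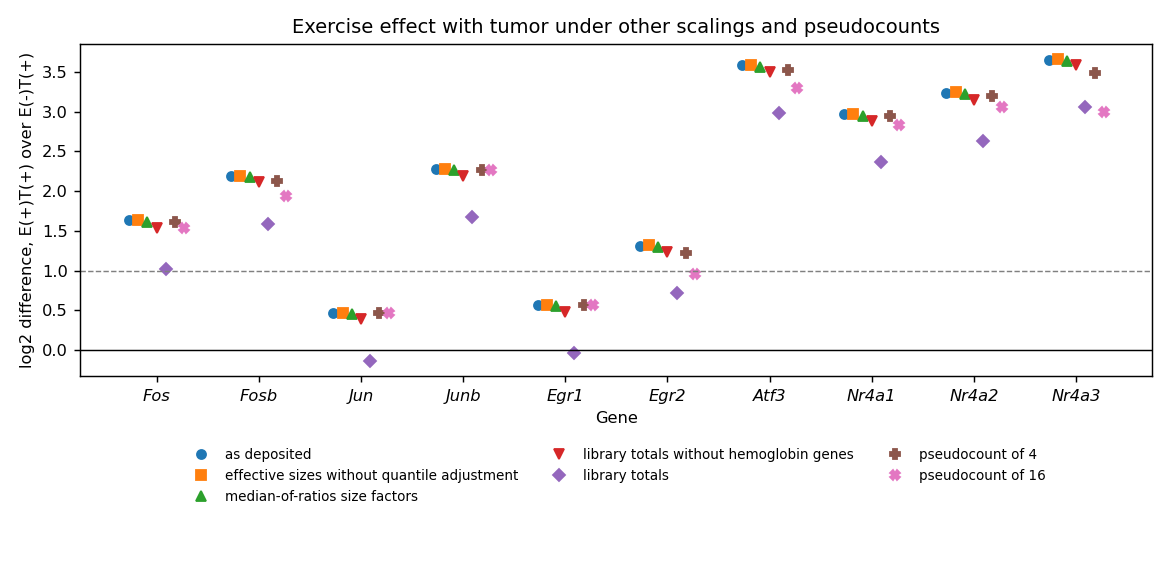
Log2 difference of E(+)T(+) over E(-)T(+) for each factor under the deposited scaling and 6 alternatives (markers). The dashed line marks 2-fold. Total reads give the lowest value for each gene except Nr4a3, where a pseudocount of 16 does, and Jun and Egr1 then lie at -0.14 and -0.04.

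On the deposited scale the exercise effect with tumor exceeded that without tumor for each of the 10 factors, against 50.5% of all genes. The gap between both log2 differences was 2.84 for Nr4a1, 2.80 for Nr4a3, 2.67 for Egr2, 2.62 for Fosb, 2.58 for Nr4a2, 2.10 for Atf3, 2.06 for Junb and 1.72 for Fos. For Egr1 it was 0.46 and for Jun 0.30, and for these 2 genes it turned negative under scaling by total reads, where the exercise differences were -0.04 with and 0.02 without tumor for Egr1 and -0.14 and 0.08 for Jun. Exercise differences of opposite sign with and without tumor, both beyond counting error, were seen for 1 factor (Egr2) and for 17.0% of all genes, and such tumor differences for 4 factors (Jun, Egr2, Nr4a1 and Nr4a2) and 13.0% of all genes. The gap uses all 4 libraries once and was not tested, since nothing is left to estimate a spread from.

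An additive fit with limma over the 4 libraries, in which any such gap counts as noise and 1 residual degree of freedom remains, was the one test across libraries that the design allowed. For tumor it called Egr1, with a mean log2 difference of 2.34 ± 0.45 (SE) and an adjusted p of 0.0142, positive in both pairs of libraries. That was 1 of 10 factors, against 3.26% of all genes, and at an unadjusted p under 0.05 there were 4 factors (Egr1, Junb, Fos and Fosb) and 17.8% of all genes. Over the alternatives the adjusted p of Egr1 from limma ran from 8.79e-05 to 0.0245. Junb (1.78 ± 0.51, adjusted p = 0.0717) and Fos (1.99 ± 0.63, adjusted p = 0.0978) missed the limit of 0.05 in the limma fit. For exercise it called none of the factors and 0 of all genes. At an unadjusted p under 0.05 there were 5 factors and 4.97% of all genes, namely Atf3 (2.53 ± 0.64), Nr4a3 (2.25 ± 0.82), Nr4a2 (1.94 ± 0.60), Nr4a1 (1.55 ± 0.61) and Junb (1.25 ± 0.51), each higher with exercise in both pairs. Their limma adjusted p lay between 0.972 and 0.998. With rows of low counts kept in, limma called 58 genes for exercise, Atf3 among them (adjusted p = 0.0224, and 0.33 to 0.999 in the other limma fits).

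Likeness between profiles was measured as the Euclidean distance between log2 values centred on each gene's mean, over the 4 libraries. The closest pair was Nr4a2 and Nr4a3 (0.36), then Fosb and Junb (0.46), Fos and Fosb (0.49) and Nr4a1 and Nr4a2 (0.52). Atf3 was nearest to Nr4a3 (0.62). The paralogs Egr1 and Egr2 (2.70) and Jun and Junb (2.23) were far apart. With 4 values per gene these distances describe the libraries and carry no test.

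Among the 11207 other genes at a mean of at least 50 normalized reads, those nearest to Fos were Zc3hav1 (distance 0.16), Cd300lf (0.18), Srsf5 (0.26), Pglyrp1 (0.30) and Tgfbi (0.30). Cd300lf is a receptor of myeloid cells and Pglyrp1 a protein of neutrophil granules, while Zc3hav1, the nearest, and Srsf5 and Tgfbi were not assigned to a cell type. Among the 5 genes nearest to the mean profile of the 10 factors were Msrb1 (0.22), Stk17b (0.24), Sirpb1b (0.25) and Clec1b (0.25). Sirpb1b is a receptor of myeloid cells and Clec1b one of platelets, while Msrb1 and Stk17b were not assigned to a cell type. Which cells gave the reads of these neighbours was not tested.

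Neutrophil and erythroid markers were also highest in E(+)T(+), and markers of other blood cells were not uniformly so. The neutrophil list, of which 6 of 7 markers had a row and none of these was at 0 in any library, summed to 3901, 12135, 10037 and 205930 normalized reads. Its 6 genes were all highest in E(+)T(+), and their median differences were 4.29 in the exercise effect with tumor and 4.07 in the tumor effect with exercise. Retnlg, for example, stood at 110, 634, 709 and 15803 normalized reads. The erythroid list summed to 1240830, 1278345, 114700 and 3782608, with all 6 genes highest in E(+)T(+). The macrophage list summed to 3755, 4096, 5580 and 13866, with 3 of 6 genes highest in E(+)T(+) and 3 in E(-)T(+), and its median difference in the exercise effect with tumor was 0.21. Most of its sum in E(+)T(+) was Chil3, at 1296, 1796, 1339 and 9856 normalized reads, while Marco was higher in the cancer control (35.6, 24.7, 702 and 331). T cell markers summed to 391, 374, 63.9 and 386 and B cell markers to 711, 531, 12.3 and 227, lowest in the cancer control and not highest in E(+)T(+). The part of these cells in the levels of the 10 factors was not tested.

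Other genes of the response were taken from lists, which were also chosen with earlier results of these data known. Among 11 AP-1 and related bZIP factors, 7 were higher by 2-fold or more and 1 lower in the exercise effect with tumor (median 1.74), against 24.3% and 17.7% of all genes, and 5 and 1 in the tumor effect with exercise (median 0.47), against 14.9% and 13.0%. In the exercise effect without tumor 4 were higher and 0 lower (median 0.47), against 5.28% and 4.70% of all genes, and in the tumor effect without exercise 4 and 3 (median -0.52), against 20.6% and 25.7%. Maff, a small MAF protein, stood at 116, 305, 377 and 2180 normalized reads, and Fosl2, a FOS relative, at 681, 929, 1614 and 4704. Both were highest in the cancer exercise library. Fosl1, a FOS relative of proliferating and transformed cells, went the other way between the tumor libraries, at 1.60, 23.8, 1117 and 193 normalized reads. It had 2 reads in the normal control and 26 in normal exercise, the library that also held Krt20 reads. Fosl1 was among the 4 genes higher with exercise without tumor (3.26), and the source of its reads there was not tested. With tumor it was lower with exercise (-2.53).

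Feedback inhibitors of the response, among them phosphatases that switch off MAP kinases and proteins that destabilize mRNA, were mostly higher in E(+)T(+). Of 16 such genes 15 passed the filter on low values. With exercise in tumor-bearing mice 12 of them were higher and 1 lower by 2-fold or more (median 1.31), against 24.3% and 17.7% of all genes. In the tumor effect with exercise 9 were higher and 0 lower (median 1.55), against 14.9% and 13.0%. Without exercise, tumor went with 4 higher and 3 lower (median 0.38), against 20.6% and 25.7%, and without tumor, exercise went with 1 and 1 (median 0.01), against 5.28% and 4.70%. Socs3, the inhibitor of cytokine signaling, stood at 274, 550, 1507 and 3592 normalized reads. Spry4, an inhibitor of receptor tyrosine kinase signaling, stood at 67.0, 57.8, 389 and 1006. Both were higher with tumor and highest in E(+)T(+). Dusp4, a nuclear MAP kinase phosphatase, was instead highest in the cancer control, at 16.1, 2.69, 95.1 and 21.1 normalized reads. Dusp5 had no read in any library.

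Of 26 other immediate early genes, 10 were higher and 3 lower by 2-fold or more in the exercise effect with tumor (median 0.66), against 24.3% and 17.7% of all genes. In the tumor effect with exercise 14 were higher and 2 lower (median 1.10), against 14.9% and 13.0%. In the tumor effect without exercise, which does not involve E(+)T(+), 11 were higher and 2 lower (median 0.85), against 20.6% and 25.7%. In the exercise effect without tumor 2 were higher and 0 lower (median 0.24), against 5.28% and 4.70%. E(+)T(+) was the highest library for 16 of the 26, against 22.3% of all genes. Csrnp1, a nuclear factor, stood at 179, 274, 292 and 2685 normalized reads. Nfil3, a bZIP repressor, stood at 95.1, 180, 392 and 1562, and Sgk1, a kinase induced by glucocorticoids and serum, at 596, 847, 1524 and 4560. All 3 were lowest in the normal control.

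Of 20 kinases and factors that act upstream, 1 was higher and 2 lower in the exercise effect with tumor (median -0.47), against 24.3% and 17.7% of all genes. The counts were 0 and 1 in the tumor effect with exercise (median 0.04, against 14.9% and 13.0%) and 0 in both directions in the exercise effect without tumor (median -0.04, against 5.28% and 4.70%). They were 2 and 3 in the tumor effect without exercise (median 0.07), against 20.6% and 25.7%. Creb1, which encodes the CRE-binding factor, was at 1650 and 1733 normalized reads without tumor and at 549 and 625 with tumor. Its tumor differences were -1.59 in resting and -1.47 in exercised mice, and its exercise differences were 0.07 without and 0.19 with tumor. Rps6ka1, an ERK-activated kinase, stood at 352, 253, 143 and 414. Crtc2, a CREB coactivator, was highest in the cancer control at 84.2, against 13.5, 7.29 and 14.1 in the other libraries. The EGR relatives and their corepressors stayed within 2-fold in every comparison, with 3 of 4 genes passing the filter. Egr3 had 10 to 24 reads, Nab1 and Nab2 differed by at most 0.44 and 0.52 over the libraries, and Egr4 had no read.

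The inducible heat shock genes separated from the immediate early factors. In the exercise effect without tumor 9 of 10 were higher by 2-fold or more (median 1.75), against 5.28% of all genes, while the factors had 1. In the exercise effect with tumor 3 were higher and 2 lower (median 0.11), against 24.3% and 17.7% of all genes, while 8 factors were higher. The tumor effects on this list were 2 higher and 4 lower without exercise (median -0.37, against 20.6% and 25.7%) and 0 higher and 8 lower with exercise (median -1.73, against 14.9% and 13.0%). Hspa1a stood at 398, 4329, 23.1 and 70.3 normalized reads, Hspa1b at 279, 3727, 59.3 and 48.1, and Hspb1 at 3866, 21056, 1277 and 5166. Heat shock genes were thus highest in the normal exercise library for these examples. Hspa1a and Hspa1b have almost the same sequence, and how their reads were split is uncertain.

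**Figure D4:**
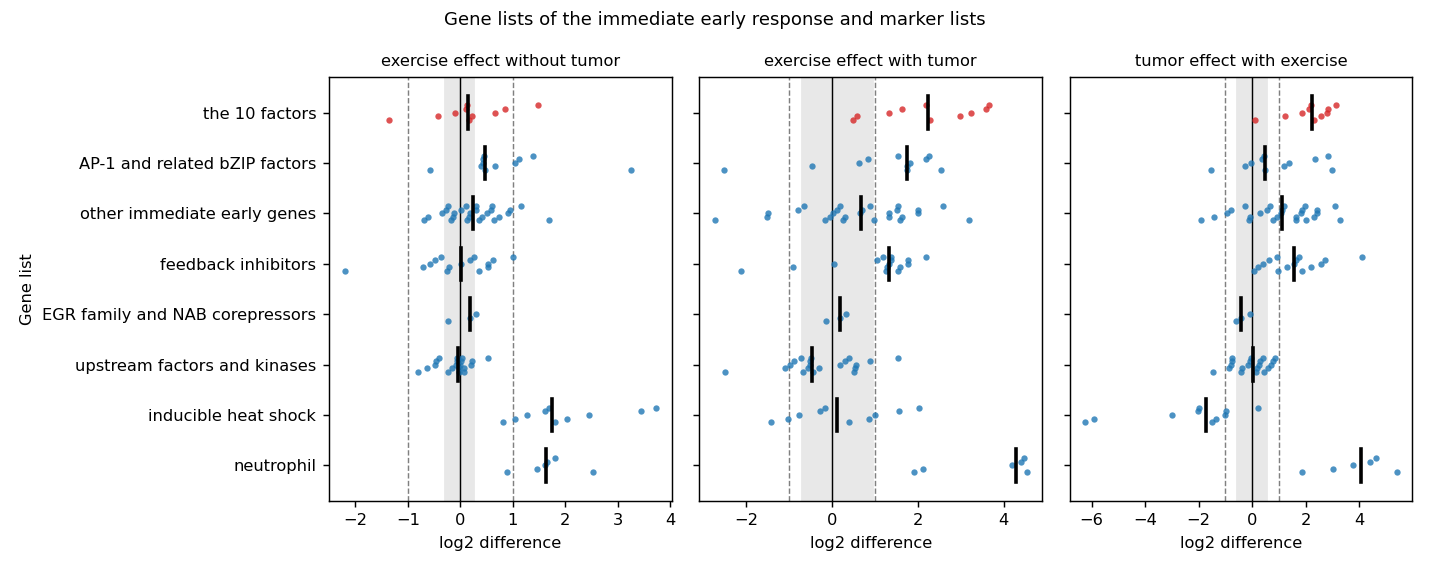
Log2 differences of single genes (points) and list medians (black bars) in 3 comparisons, for genes at a mean of at least 4 normalized reads. The grey band runs from the lower to the upper quartile of all genes, and dashed lines mark 2-fold. The 10 factors lie right of 0 in the 2 comparisons with E(+)T(+), and 13 of 15 feedback inhibitors do in the exercise effect with tumor, where the medians are 2.23 and 1.31, and the heat shock list lies right in the exercise effect without tumor (1.75).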

How the data were processed

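Lung RNA was sequenced from poly(A) ends (QuantSeq 3′ mRNA-Seq). Per the labels and methods, the authors aligned reads with Bowtie2 to mm10, counted them per gene with bedtools and applied a quantile normalization. Versions, annotation and use of strand were not given in the sources used here, so that overlapping or antisense genes may share reads. The deposited values are on a log2 scale, log2(normalized read count + 1) at 3 decimals, 1 file per library.

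Whole reads were recovered by fitting 4 relative library sizes and 1 dispersion (0.372) to rows of low counts and inverting the authors' negative binomial quantile step. The recovered reads gave 100% of the values within 0.001. A floor of 3 reads came to 0.224 to 0.321 CPM. Comparisons were differences of deposited log2 values, which understate low genes. The 15164 genes whose mean reached 4 normalized reads formed the background, and 2-fold was the limit. The additive fit was made with limma 3.58.1 (trend on mean expression, Benjamini-Hochberg over 15164 genes). Read recovery and the fit were tested on simulated data. Intervals used scipy 1.17.1 in Python 3.11.15.

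All 10 factors were named. In each pathway list the 3 genes with the largest range were named, and marker lists are given mainly by sums. The named neighbours were taken from the 5 nearest profiles, of which 1 is not reported here. The members and lists were chosen with earlier results of these data known. Alternatives were pseudocounts of 4 and 16, other scalings, no quantile adjustment and other filters. No paired analysis was possible because each group holds 1 library.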

Additional observations from a re-analysis of the deposited data

Results flagged for a closer look

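For 4 of the factors the same contrast had opposite signs in the 2 settings, with both counting intervals off 0. Exercise effects did so for 1 factor and 17.0% of all genes, and tumor effects for 4 factors and 13.0% of all genes. Exercise went with lower Egr2 without tumor (-1.36) and higher Egr2 with tumor (1.31), and tumor went with lower Egr2 in resting mice (-1.43) and higher Egr2 in exercised mice (1.24), on 23 to 82 reads per library. Tumor differences were -0.54 in resting and 2.30 in exercised mice for Nr4a1, and -0.72 and 1.86 for Nr4a2. For Jun they were -0.20 and 0.10, and the latter turned to -0.31 under scaling by total reads. None of these differences between settings was tested, since each group is 1 library.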

How the results depend on the processing

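No paired analysis was possible because each group holds 1 library, and no replicate could be left out. Of 240 differences of the 10 factors recomputed under 6 alternatives, 216 stayed inside the main counting interval and 24 moved beyond it, 18 of these under scaling by total reads. No difference past 2-fold changed sign. The number of factors past 2-fold stayed within 1.5 times in every comparison. The share of all genes past 2-fold moved with the filter: at a mean of at least 100 it was 2.13% in the exercise effect without tumor (9.98% at 4) and 17.9% in the tumor effect with exercise (27.8% at 4). In the additive limma fit, the 0 genes called for exercise became 58 without a filter (1 factor) and 5 with a pseudocount of 4. For tumor, the 495 genes called became 1284 without a filter, 884 with a pseudocount of 4 and 326 with median-of-ratios size factors. The factors called for tumor went from 1 to 3 without a filter (Egr1, Junb and Fos) and 2 with a pseudocount of 4 (Egr1 and Junb). Without a filter limma estimated infinite prior degrees of freedom, against 14.1 with it, so that all genes of like expression shared 1 spread there. The cause was not tested. Egr2, on 23 to 82 reads, and Nr4a3 and Fosb, on 20 to 247 reads, had the widest counting intervals.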

Other observations

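Other cell type lists differed between the tumor libraries too. In the exercise effect with tumor, median log2 differences were 3.04 for the 8 endothelial markers, 2.48 for the 9 alveolar epithelium markers, 2.36 for the 5 smooth muscle and pericyte markers, 2.79 for the T cell markers, 4.97 for the B cell markers and 1.37 for the 4 airway markers. They were -1.61 for the 7 cell division genes and -0.68 for the 7 fibroblast markers. In the tumor effect with exercise the same lists stood at -0.28, -0.40, -0.29, 0.34, -1.07, -0.64, 2.36 and 0.48. The medians of the 10 factors were 2.23 and 2.25. The neutrophil list stood at 4.29 and 4.07, the erythroid list at 5.28 and 1.80 and the skeletal muscle list at 1.64 and 2.09. The colon epithelial list stood at 1.94 and 1.14, but its median did not follow Krt20, which was lower with exercise with tumor (-2.41). Krt8 and Krt18 of that list had 841 and 771 normalized reads in the normal control, where Krt20 had 0. With tumor in resting mice Krt8, Krt18 and Epcam were lower (-1.13, -0.90 and -1.75) and Krt20 was higher (11.53). The median of this list is thus no measure of tumor cells. The heart muscle list stood at 1.58 and -1.25. The part of these cell types in the levels of the factors was not tested. The smooth muscle, heart muscle and T cell lists rest on 5 genes each, and the airway, B cell, skeletal muscle and colon lists on 4 each.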
